A study of Mus musculus with 8 samples.

Results

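The genes described here are 36 regulators of programmed cell death in MLO-Y4 cells, a mouse line with features of osteocytes that was immortalized with SV40 large T antigen, a protein known to bind p53, out of 55359 genes in the deposited table. They were chosen by name: members of the BCL2 family, caspases, inhibitor of apoptosis (IAP) genes, death receptors with their adaptors, and 2 necroptosis genes. No threshold on a measured value entered the choice, although earlier results of these data were known. Libraries C5 to C8 came from 4 samples of non-irradiated cells, and L5 to L8 from 4 samples of cells exposed for 1 min to a pulsed Er:YAG laser at 2940 nm and 6 J/cm2 (L5 to L8). All cells were wild type, seeded 72 h earlier on collagen-coated 35-mm dishes. The medium was taken off before exposure from a distance of 25 cm, and total RNA was collected 6 h later. Sequencing was of poly(A) RNA. For the non-irradiated dishes the labels do not say whether the medium was taken off or when RNA was collected. Any difference in these steps cannot be told apart from the exposure itself. Whether libraries of a group are separate cultures is not in the labels. The tests therefore rest on library-to-library variation that may be only technical, within a single cell line. In such bulk RNA, fewer cells expressing a gene and less RNA per cell cannot be told apart.

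Apoptosis through mitochondria is set by the BCL2 family. BH3-only proteins sense damage or loss of signals, survival proteins such as MCL1 bind and hold them, and BAX and BAK form pores in the outer mitochondrial membrane when that hold fails. Cytochrome c then leaves the mitochondria and joins APAF1 and caspase-9, while death receptors of the tumour necrosis factor (TNF) family reach the same executioner caspases through FADD and caspase-8. Caspase-8 also keeps RIPK1, RIPK3 and MLKL from starting necroptosis. Loss of osteocytes by apoptosis is known as a signal that draws bone-resorbing cells to damaged bone.

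Library totals ran from 43786209 to 51734166 counts, with 19034 to 19508 genes detected. The mean root-mean-square log2 difference of a library to its group was 0.478 to 0.493, and by that measure none stood apart. The number of genes passing the edgeR test did depend on the libraries numbered 6. It was 2270 with all libraries, 2673 without C6 and 1672 to 1769 without C5, C7 or C8. It was 2168 without L6, 1705 to 1776 without L5, L7 or L8, and 2733 without both libraries numbered 6. Of 12 osteocyte markers 8 had a mean of at least 1 CPM (library-scaled counts, as defined in the processing). Sost, Mepe and Fgf23, which mark mature osteocytes, were at 0 in every library. Dmp1 averaged 0.108 CPM without and 0.327 CPM with irradiation, but the groups overlapped, and it was below the filter and was not tested. Pdpn, Gja1, Mmp14, Hyou1 and Cd44 were called higher (1.12- to 1.27-fold, edgeR adjusted p under 0.05) and Capg 1.12-fold lower, while Phex and Fn1 did not pass. Of 7 osteoblast markers 5 had a mean of at least 1 CPM. Among these, Runx2, Alpl and Col1a2 were called higher (1.18- to 1.23-fold), and Sp7 and Col1a1 did not pass. Of 8 macrophage and haematopoietic markers 3 had a mean of at least 1 CPM. Their summed level was 30.6 to 35.4 CPM in non-irradiated and 48.3 to 50.9 CPM in irradiated libraries. Csf1r and Cd14 rose 1.85-fold and 1.41-fold (edgeR adjusted p = 1.06e-07 and 0.000293), Cd68 was 1.26-fold lower without passing the test (adjusted p = 0.193), and the defining genes Ptprc, Adgre1, Itgam and Tyrobp were at 0 in every library. Of 5 neural markers 1, Tubb3, had a mean of at least 1 CPM and rose 1.61-fold (adjusted p = 7.96e-05), which took the list from 9.06 to 10.4 CPM in non-irradiated to 13.5 to 17.2 CPM in irradiated libraries. The part of these shifts in the results was not tested.

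Most of these cell-death genes were expressed at similar levels in irradiated and non-irradiated cells. All 36 were found in the table and 33 passed the filter on low counts. Of these, 2 were lower after irradiation, 0 were higher and 31 did not pass the test (edgeR quasi-likelihood fit, with p adjusted after Benjamini and Hochberg over all 15164 tested genes and a threshold of 0.05). The members that fell were Bmf, a BH3-only gene, by 1.68-fold, and Casp12, an inflammatory-type caspase gene, by 1.29-fold. Among all tested genes 15.0% were called, 8.22% higher and 6.75% lower, against 6.06% of the tested members. DESeq2 called 1 member higher, Xiap, and the same 2 lower, against 11.2% and 8.97% of all genes, and limma-voom called 0 higher. When library totals alone set the scale, 43.8% of all calls were higher instead of 54.9%, and the same 2 members were lower.

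The limits on change were narrow for most members. The 95% interval of the fold change lay wholly inside a 1.25-fold change in either direction for 25 of 33 members (75.8%), against 50.4% of all tested genes, and inside a 1.5-fold change for 30 of 33 (90.9%), against 68.9%. Members were also more abundant, with a median of 37.7 CPM against 23.1 CPM over all tested genes. Their log2 fold changes (irradiated over non-irradiated) ran from -0.75 to 0.13 with a median of -0.048, and 22 of 33 (66.7%) lay below 0. That number was 19 of 33 without both libraries numbered 6 and 25 of 33 when library totals alone set the scale. Over all tested genes the median was -0.0065 and 51.6% lay below 0. The median size of a log2 fold change, sign aside, was 0.079 among members and 0.125 among all tested genes. At an unadjusted p under 0.05 there were 10 members, 30.3% against 27.4% of all genes. By direction, 7 were lower (21.2% of the members against 13.5% of all genes) and 3 were higher (9.09% against 13.9%).

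**Figure D1:**
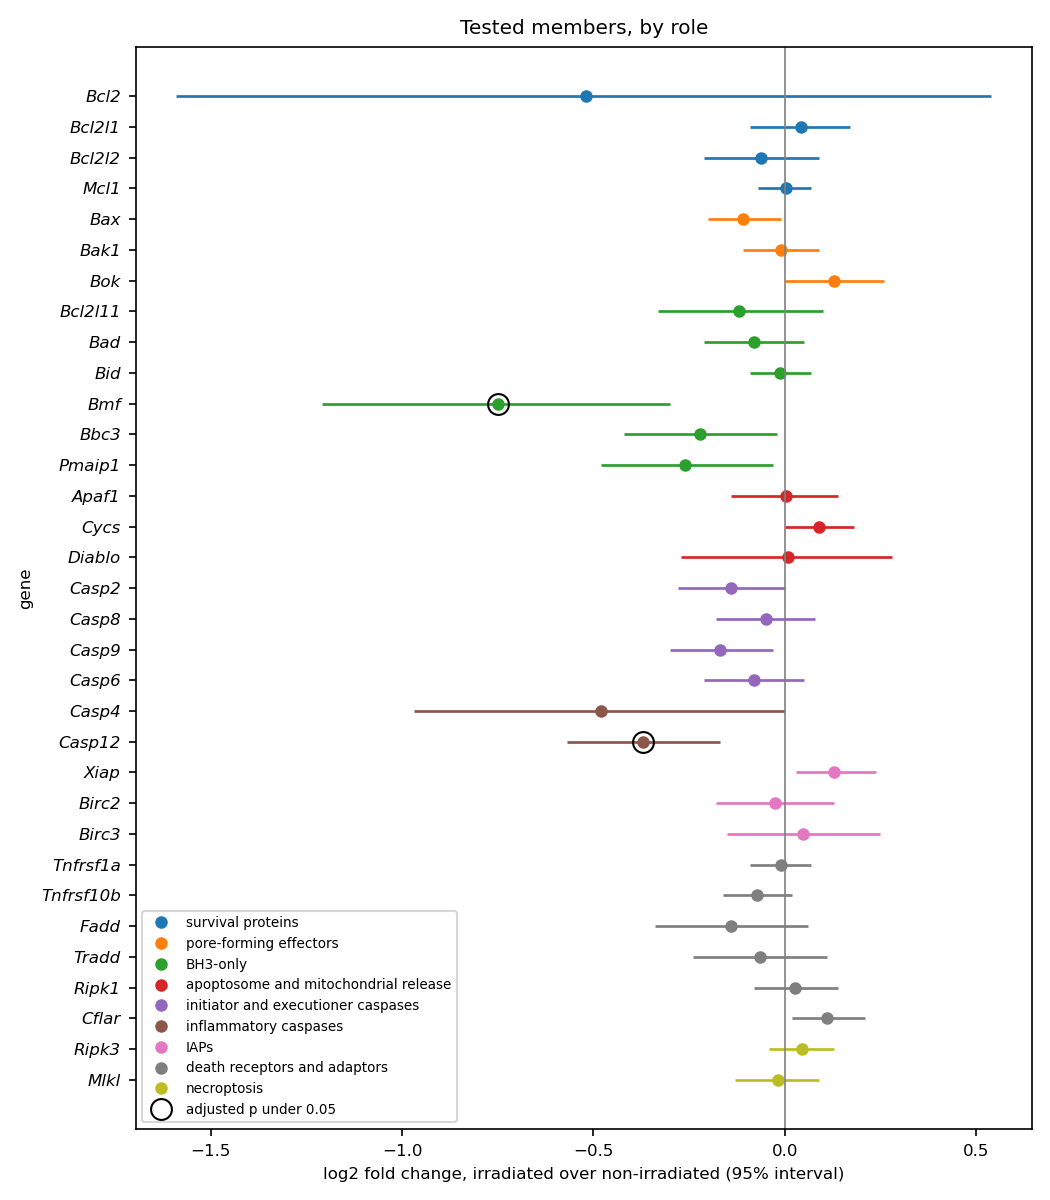
Log2 fold change of each of the 33 tested members (x axis, irradiated over non-irradiated) with its 95% interval, one gene per row and coloured by role; black rings mark adjusted p under 0.05. Only Bmf at -0.75 and Casp12 at -0.37 carry a ring, and most points lie close to 0.

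The survival genes did not pass the test. Mcl1, which encodes a short-lived protein that restrains BAK and BIM, stood at 194, 203, 195 and 191 CPM in C5 to C8 and at 189.7, 199, 196 and 200.1 CPM in L5 to L8. The libraries of both groups were interleaved, and the log2 fold change was 0.0041 (95% interval -0.07 to 0.07, adjusted p = 0.959 in edgeR). Bcl2l1, the BCL-xL gene, averaged 66.6 ± 2.33 CPM (SD, n = 4) in C5 to C8 and 68.7 ± 7.26 CPM in L5 to L8, and Bcl2l2, the BCL-w gene, 31.7 ± 3.25 and 30.4 ± 1.68 CPM. Bcl2 itself was barely expressed. It gave 0.861, 1.61, 0.209 and 0.895 CPM without irradiation and 0.606, 0.485, 1.04 and 0.361 CPM with it. These groups overlapped widely, with 10 to 75 counts per non-irradiated and 18 to 45 per irradiated library. The log2 fold change was -0.52 with all libraries, -0.08 without C6, -0.85 without C7 and -0.88 without L7. It ran from -0.88 to 0.03 over 16 alternatives. The interval ran from 3.01-fold lower to 1.46-fold higher, so that a change of moderate size in Bcl2 could not be detected in these libraries.

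Among the genes of the pore-forming effectors, Bax and Bok leaned in opposite directions without passing the test. Bax, whose protein moves from the cytosol into mitochondria to form pores, gave 115, 106, 118 and 122 CPM in C5 to C8 and 106, 107, 103 and 112 CPM in L5 to L8. The log2 fold change was -0.11 with an SE of 0.045 (adjusted p = 0.125). The ranges overlapped through C6, the lowest non-irradiated library, and without C6 Bax was called lower (adjusted p = 0.0182; 0.0182 to 0.345 over all alternatives). Bok, a relative of BAX and BAK, gave 58, 60.5, 59.2 and 56.5 CPM without irradiation and 65.7, 54.2, 67.6 and 68.5 CPM with it. Its irradiated libraries lay above all non-irradiated ones except for L6, which lay below them all, and without L6 Bok was called higher (adjusted p = 0.00886, against 0.191 with all libraries and 0.00456 to 0.442 over the alternatives). Bak1, the BAK gene, was at 87.9 ± 4.42 and 87.3 ± 4.13 CPM (n = 4 each).

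The BH3-only genes held the member with the largest log2 fold change. Of 8 genes, 6 passed the filter, and 1 of them, Bmf, was called lower, against 6.75% of all tested genes. All 6 had a log2 fold change below 0, from -0.75 to -0.01, against 51.6% of all tested genes. With so few genes these counts say little about the role as a whole. Bmf (ENSMUSG00000040093.17) encodes a BH3-only protein that is known to be tied to motor complexes of the cytoskeleton and to be released when cells lose attachment. It gave 2.61, 3.85, 4.33 and 3.7 CPM in C5 to C8 and 1.51, 2.54, 2.31 and 2.25 CPM in L5 to L8. The groups did not overlap, although C5 and L6 lay close together. The mean was 3.62 ± 0.73 CPM without and 2.15 ± 0.448 CPM with irradiation (SD, n = 4 each), a 1.68-fold fall (95% interval 1.23- to 2.31-fold; log2 fold change -0.75, SE 0.217, edgeR adjusted p = 0.0232). This rested on few reads, 121 to 207 counts per non-irradiated and 72 to 131 per irradiated library. The call was lost without C7 (adjusted p = 0.0925), without C8 (0.0585) or without L5 (0.0789), and adjusted p ran from 0.00801 to 0.0925 over 17 alternatives with the direction unchanged in all of them.

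The other BH3-only genes did not pass the test. Pmaip1 and Bbc3, which encode NOXA and PUMA and are known p53 targets, gave log2 fold changes of -0.26 (SE 0.107, edgeR adjusted p = 0.119) and -0.22 (SE 0.095, edgeR adjusted p = 0.13). Pmaip1 was at 11.7, 13.5, 13.4 and 16.3 CPM in C5 to C8 and 12.1, 10, 11.7 and 12.1 CPM in L5 to L8. Bbc3 was at 17.3, 15.8, 20.5 and 16.8 CPM and at 16.2, 15.4, 15.6 and 13.1 CPM. In both genes the highest libraries were non-irradiated and the lowest was irradiated, but the ranges overlapped. Bcl2l11, the BIM gene, had a mean of 16.2 ± 2.18 against 15 ± 1.47 CPM. Bad, whose protein is held inactive by growth factor signalling, had 37.7 ± 1.65 against 35.6 ± 2.24 CPM. Bid, the link from caspase-8 to mitochondria, was the most abundant of the group at 98.1 ± 3.3 and 97.3 ± 1.76 CPM, and its interval of -0.09 to 0.07 on the log2 scale was among the narrowest. Hrk had 0 counts in every library, so its level may be as high as 0.0693 CPM, or 3 counts in the library with the lowest scaled total (0.277 CPM if a fragment adds 4 counts; counting error only). Bik had 3 counts in L6 and 0 elsewhere. Neither was tested.

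**Figure D2:**
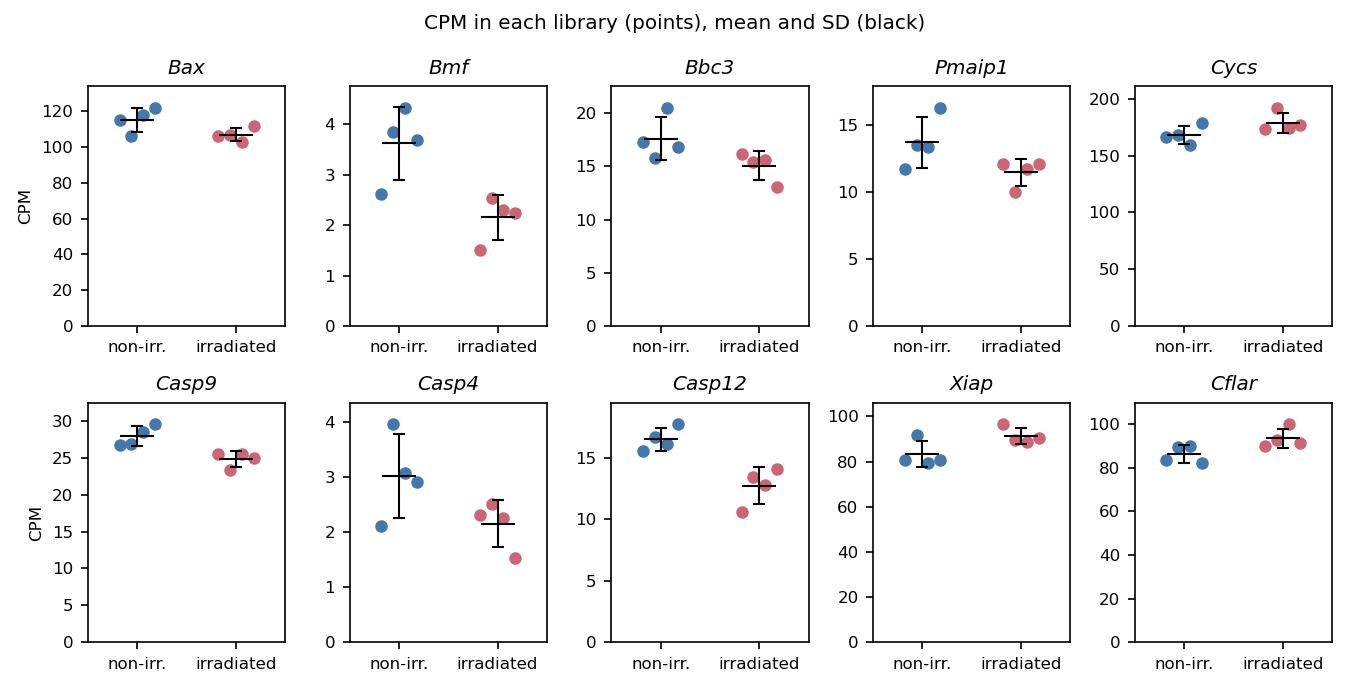
CPM in each library (y axis from 0) for the 10 members with an unadjusted p under 0.05, non-irradiated in blue and irradiated in red, with the mean and SD in black. The groups separate without overlap in Bmf, Casp9 and Casp12, and overlap in the other panels.

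Genes of cytochrome c release and the apoptosome showed no called change. Cycs, the gene of cytochrome c, gave 166, 168, 159 and 179 CPM in C5 to C8 and 173, 192, 174 and 177 CPM in L5 to L8. Its log2 fold change was 0.091 with an SE of 0.042 (adjusted p = 0.161). The L6 value of 192 CPM was the highest of the 8, and the ranges overlapped. Apaf1, the scaffold of the apoptosome, had the same mean of 44.3 CPM in both groups (SD 4.53 and 1.94, n = 4 each), and Diablo, whose protein relieves caspases from IAPs, had 27.8 ± 5.37 and 27.9 ± 1.82 CPM.

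The 4 initiator and executioner caspase genes all had log2 fold changes below 0, from -0.17 to -0.05, against 51.6% of all tested genes. None was called, against 15.0% of all tested genes. With so few genes these counts say little about the role as a whole. Casp9, the initiator that the apoptosome activates, came closest. It stood at 26.7, 26.9, 28.5 and 29.5 CPM without irradiation and 25.5, 23.3, 25.5 and 25 CPM with it. The groups did not overlap, yet the difference was small (1.12-fold lower, 95% interval 1.02- to 1.23-fold, edgeR adjusted p = 0.0918) and stayed above the threshold in all 17 alternatives (0.0529 to 0.228). With Bmf and Casp12 it made 3 members with separate groups (9.09%, against 18.5% of all tested genes). Casp2, an initiator known for its link to cell division faults, was at 39.5 ± 1.74 and 35.9 ± 3.47 CPM. The executioner Casp6 was at 39.7 ± 0.627 and 37.6 ± 3 CPM, and Casp8, the initiator that death receptors recruit, at 32.1 ± 1.17 and 31.1 ± 2.15 CPM (95% interval -0.18 to 0.08 on the log2 scale).

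Among the inflammatory caspases 1 of 2 tested genes was called lower, against 6.75% of all tested genes, a count too small to speak for the role. Casp12 (ENSMUSG00000025887.11), a rodent caspase of the inflammatory group that is found at the endoplasmic reticulum, gave 15.5, 16.7, 16.1 and 17.7 CPM in C5 to C8 and 10.6, 13.4, 12.8 and 14.1 CPM in L5 to L8. Every irradiated library lay below every non-irradiated one, with L5 the lowest. The mean dropped from 16.5 ± 0.926 to 12.7 ± 1.49 CPM (SD, n = 4 each), 1.29-fold (95% interval 1.13- to 1.49-fold; log2 fold change -0.37, SE 0.095, edgeR adjusted p = 0.0104), and the call held in all 17 alternatives (adjusted p 0.00275 to 0.0437). Casp4, the mouse caspase-11 gene, whose product senses lipopolysaccharide in the cytosol, gave 2.11, 3.96, 3.08 and 2.92 CPM and 2.32, 2.52, 2.26 and 1.53 CPM. L8 was lowest and C6 highest, but C5 lay within the irradiated range (log2 fold change -0.48, SE 0.230, edgeR adjusted p = 0.181). Casp1, the caspase of inflammasomes, had 11 counts each in C6 and C7, 22 in all, and 0 counts in C5, C8 and L5 to L8. It was below the filter and was not tested.

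The promoters of the genes that fell are shown because these are the only members called. RefSeq promoter windows were matched for 32 of the 36 members. The stretch before the first annotated transcript start is given 5′ to 3′ on the gene's strand in GRCm38.p6, which is not the build the authors used. Capitals mark the letters CATG, which occur in the core of p53 sites. The bases around them were not searched, so the capitals do not mark a p53 site.

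Bmf, chr2:118549688-118549936, minus strand: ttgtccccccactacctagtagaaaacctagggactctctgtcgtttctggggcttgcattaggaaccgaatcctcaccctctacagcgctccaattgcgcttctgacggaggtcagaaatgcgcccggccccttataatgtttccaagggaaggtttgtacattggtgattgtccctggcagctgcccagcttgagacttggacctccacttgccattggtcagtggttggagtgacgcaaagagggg
Casp12, chr9:5345226-5345429, plus strand: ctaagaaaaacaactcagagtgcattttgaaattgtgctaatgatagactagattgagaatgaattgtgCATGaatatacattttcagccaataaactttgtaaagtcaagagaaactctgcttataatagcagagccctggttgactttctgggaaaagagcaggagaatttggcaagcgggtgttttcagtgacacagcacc

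The Bmf stretch has a GC content of 53.8% and the Casp12 stretch 38.2%. CATG reads the same on both strands and occurred once in the Casp12 stretch and not in that of Bmf, while 53.9% of 32851 RefSeq promoters hold it in their 250 upstream bases. On both strands of these 250 bases, the AP-1 site (TGAGTCA or TGACTCA, 4.46% of promoters), the forkhead core (TGTTTAC or TATTTAC, 5.76%) and the core of the interferon-stimulated response element (TTTC, any bases at 2 positions, then TTTC, 2.98%) had no match in Casp12 or in any of the 3 windows of Bmf. This says only that these letters are not in these windows.

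IAP genes, which encode caspase inhibitors and ubiquitin ligases, did not pass the test. Xiap, the IAP that blocks caspases directly, gave 80.6, 91.8, 79.5 and 80.9 CPM in C5 to C8 and 96.5, 89.6, 88.6 and 90.6 CPM in L5 to L8. Its irradiated libraries lay above 3 of the 4 non-irradiated ones, and C6 reached into their range. With all libraries Xiap missed the threshold (1.1-fold, log2 fold change 0.13, SE 0.049, edgeR adjusted p = 0.0731). It passed without C6 (0.00517), without both libraries numbered 6 (0.0041), with DESeq2 (0.0496), with a filter of 1 CPM (0.0476) and with counts divided by 4 (0.0471), within a range of 0.0041 to 0.228 over the alternatives. Birc2 and Birc3, the cIAP genes that act on RIPK1 at the TNF receptor, had means of 22.2 ± 1.58 and 13.2 ± 1.7 CPM without and 21.9 ± 1.25 and 13.6 ± 0.416 CPM with irradiation.

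None of the 6 death receptor and adaptor genes was called, against 15.0% of all tested genes, a count too small to speak for the role. Tnfrsf1a, the main TNF receptor, was the most abundant member by CPM, at 243, 234, 243 and 259.9 CPM in C5 to C8 and 233, 252, 247 and 242 CPM in L5 to L8. The groups overlapped, with L5 the lowest and C8 the highest, and the 95% interval was -0.09 to 0.07 on the log2 scale. Tnfrsf10b, the receptor of the ligand TRAIL, had 76.4 ± 1.76 and 72.8 ± 2.57 CPM, a log2 fold change of -0.071 (SE 0.044, adjusted p = 0.32). Cflar, whose product FLIP competes with caspase-8 for FADD, gave 83.7, 89.7, 90.1 and 82.2 CPM without and 89.9, 92.9, 99.9 and 91.4 CPM with irradiation. Only L5 lay inside the non-irradiated range, but the difference of 1.08-fold was not called (adjusted p = 0.107 in edgeR, 0.062 to 0.305 over the alternatives). Fadd (12.9 ± 0.436 and 11.7 ± 1.18 CPM), Tradd (21.7 ± 1.14 and 20.8 ± 2.56 CPM) and Ripk1 (61.6 ± 3.13 and 62.8 ± 3.29 CPM), the adaptors and kinase of the receptor complex, did not pass the test (adjusted p = 0.364, 0.699 and 0.807).

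The necroptosis genes were well expressed and tightly bounded. Ripk3, the kinase that starts necroptosis, gave 82, 84.3, 88.1 and 84.2 CPM in C5 to C8 and 88.3, 90, 86.2 and 85.2 CPM in L5 to L8, and Mlkl, which encodes the membrane-breaking effector, had means of 76.3 ± 4.5 and 75.4 ± 4.28 CPM. The 95% intervals were -0.04 to 0.13 and -0.13 to 0.09 on the log2 scale. Zbp1, a nucleic acid sensor that can engage RIPK3, is an interferon-response gene and fell 1.35-fold (60.5 ± 1.89 to 44.9 ± 2.54 CPM, edgeR adjusted p = 8.73e-06). It belongs to an interferon list of which 16 of 16 genes were lower (6.75% of all tested genes were), but that list was chosen with its direction known, so the count supports nothing further.

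Levels of different genes were compared per length of transcript. In non-irradiated cells Tnfrsf1a had 114 ± 5.06 CPM per kb of its longest transcript, Bax 105 ± 6.23, Mcl1 57.3 ± 1.47, Cycs 53.8 ± 2.65 and Ripk3 43.1 ± 1.29 (SD, n = 4). At the low end Bcl2l11 had 3.22 ± 0.433, Casp4 1.59 ± 0.399, Bmf 0.78 ± 0.157 and Bcl2 0.124 ± 0.0793 CPM per kb. The survival genes thus spanned from Mcl1, at rank 3 of 36, to Bcl2, at rank 33, below which stood only Casp1, Bik and Hrk. These levels depend on the length used. With the median transcript length in place of the longest, Tnfrsf1a stood at 354 and Bcl2 at 0.178 CPM per kb and both kept their ranks. Ripk3 (176 CPM per kb) moved from rank 5 to 2 and Bid from 6 to 3, while Bax moved from 2 to 4, Mcl1 from 3 to 5 and Cycs from 4 to 6. Bcl2l2 moved from rank 21 to 11, and Bmf, at 5.63 CPM per kb, from 32 to 29.

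**Figure D3:**
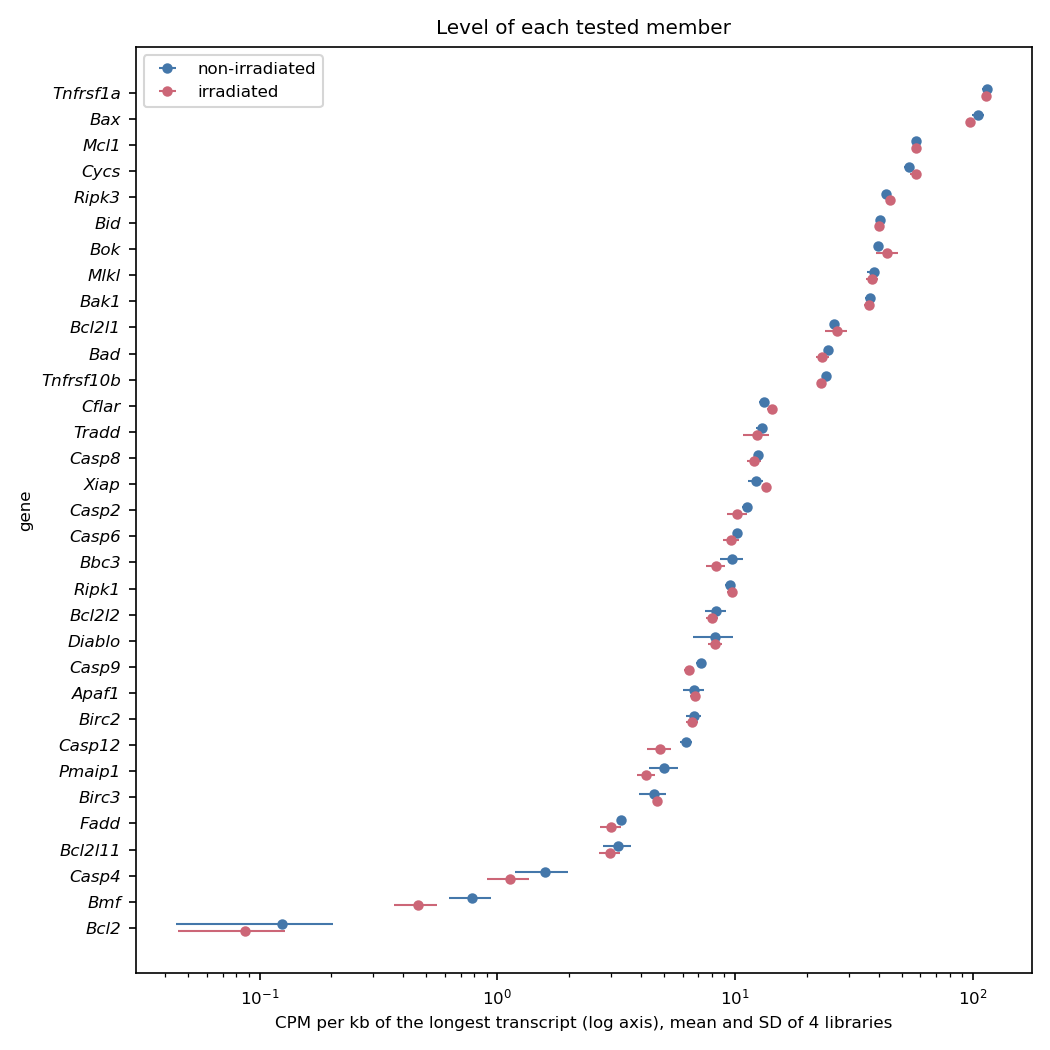
Level of each of the 33 tested members as CPM per kb of its longest transcript (x axis, log scale), mean and SD of 4 libraries, non-irradiated in blue and irradiated in red. Levels run from 0.124 for Bcl2 to 114 for Tnfrsf1a in non-irradiated cells, and the colours lie side by side for most genes.

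Other genes of the same pathways, from lists chosen by name, are given by list. For comparison, 15.0% of all tested genes were called, and the 6 lists that follow had 12.5% to 28.6% called, so that some lay below the background. Among other BCL2-family genes and mitochondrial partners 2 of 17 tested rose and 2 fell. Bnip3, a mitophagy receptor with a BH3-like region, fell by 0.40 on the log2 scale, from 28.3 ± 1.46 to 21.5 ± 0.813 CPM (edgeR adjusted p = 0.000274), and its relative Bnip3l fell 1.16-fold (adjusted p = 0.003). Bcl2l13 rose 1.12-fold (adjusted p = 0.00723) and Bclaf1 1.08-fold (adjusted p = 0.0327, lost in 8 of 17 alternatives, up to 0.103).

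Among 14 tested genes of the execution phase 3 rose and 1 fell. Xkr8, a scramblase that exposes phosphatidylserine after caspase cleavage, fell 1.29-fold (edgeR adjusted p = 0.0351) and lost its call in 7 of 17 alternatives (up to 0.129). Htra2, a mitochondrial protease that can bind IAPs, rose 1.16-fold from 107 ± 4.19 to 124 ± 3.4 CPM (adjusted p = 0.000817), and the kinase gene Rock1, whose product drives membrane blebbing, rose 1.12-fold (adjusted p = 0.00648). Pak2, a kinase that caspases cleave and activate, rose 1.1-fold from 174 ± 7 to 191 ± 2.57 CPM (adjusted p = 0.0112), with every irradiated library above every non-irradiated one.

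Of 15 tested IAP and caspase-partner genes 1 rose and 1 fell. Xaf1, an interferon-inducible antagonist of XIAP, fell 1.21-fold from 157 ± 6.34 to 130.5 ± 4.08 CPM (edgeR adjusted p = 4.41e-05), and Birc6, a giant ubiquitin ligase, rose 1.16-fold (adjusted p = 0.0136, above the threshold without C8 or L5, up to 0.0507). Among 26 tested ligands, receptors and adaptors 1 rose and 5 fell. Tnfrsf12a, the receptor of the ligand TWEAK, rose 1.27-fold from 261 ± 3.11 to 331 ± 16.2 CPM (adjusted p = 6.68e-07). Tnfrsf25, a receptor with a death domain, fell 2.03-fold from a low 2.99 ± 0.415 CPM (adjusted p = 0.00377), and Tnfaip8 and Daxx fell 1.27-fold and 1.26-fold (adjusted p = 0.00717 and 2.28e-05). Fas, named after its values were seen, was at 4.61 ± 0.774 and 4.42 ± 0.243 CPM (adjusted p = 0.86).

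In the list for pyroptosis and inflammasomes 1 of 8 tested genes changed. Txnip, an arrestin-like protein that binds thioredoxin, fell 1.71-fold from 291 ± 8.16 to 171 ± 5.31 CPM (edgeR adjusted p = 2.19e-11). Among 14 tested transcription factors known to act on BCL2-family genes 2 rose and 2 fell. Trp53 itself, named after its values were seen, was at 145 ± 4.35 and 140.2 ± 7.06 CPM (adjusted p = 0.46). Trp63 rose 2.39-fold from a low 0.918 ± 0.371 CPM (adjusted p = 0.00677) and Myc 1.17-fold (adjusted p = 0.0018), while Atf4 fell 1.12-fold (adjusted p = 0.00094). Ddit3, the CHOP gene of endoplasmic reticulum stress, fell 1.16-fold (adjusted p = 0.0307) and lost its call in 7 of 17 alternatives (up to 0.101).

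**Figure D4:**
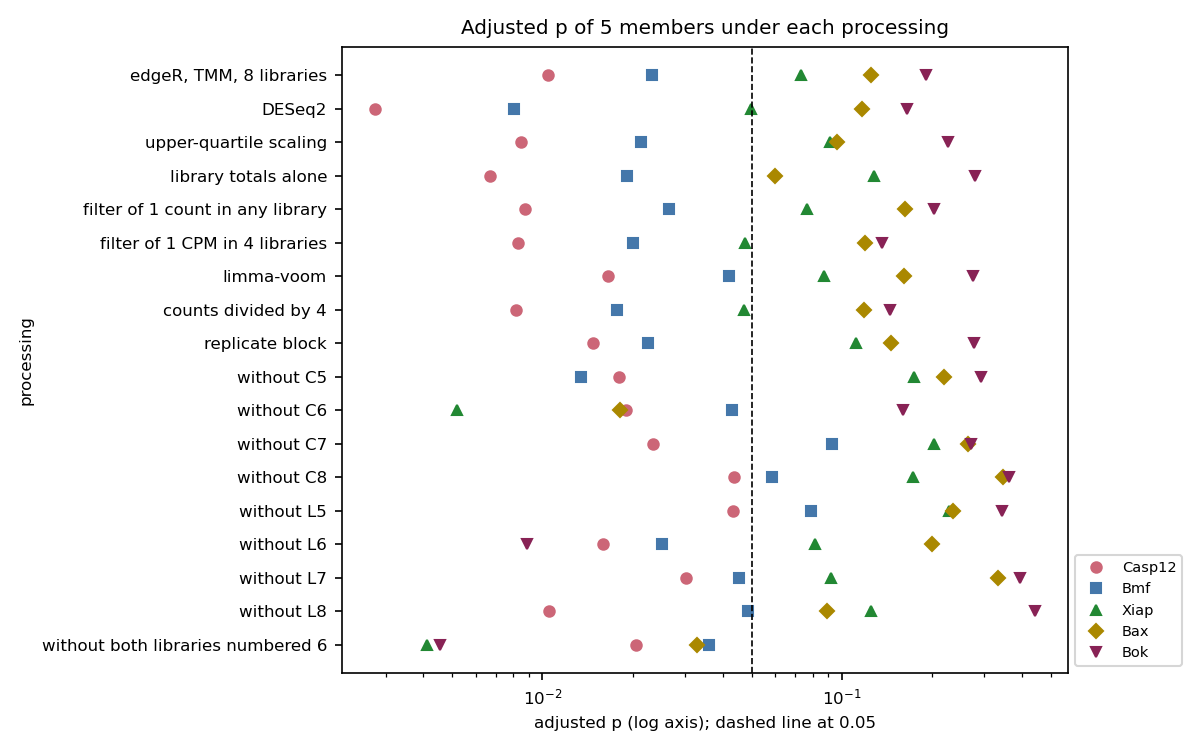
Adjusted p (x axis, log scale) of Casp12, Bmf, Xiap, Bax and Bok under the reported processing and each of 17 alternatives (rows), with a dashed line at 0.05. Casp12 stays left of the line in every row; Bmf crosses it without C7, C8 or L5, Bax passes it only without C6 and without both libraries numbered 6, Bok only without L6 and without both, and Xiap without C6, without both and in 3 other rows.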

How the data were processed

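RNA-seq of 8 libraries was analysed from the gene table the authors deposited, whose values are whole-number estimated counts, not normalized. Per the submitters' processing notes, the tools were HISAT2 2.2.1, StringTie 2.1.7, Trimmomatic 0.39, DESeq2 1.32.0 and FastQC 0.11.9, and the build was GRCm39. Their order, settings, annotation release and strand use: not given in the sources used here, so overlapping and antisense genes and close paralogs are uncertain. Low counts varied more than single reads would: for means of 5 to 100, the variance was a median of 4.21 times the mean in the non-irradiated and 4.32 times in the irradiated group, hence an alternative with counts divided by 4.

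Symbols came from GENCODE M21 (52083 of 55359 identifiers matched), which also gave transcript lengths. The 8 columns are numbered 5 to 8 and the sample titles 1 to 4, so columns were tied to groups only. The filterByExpr rule (minimum count 10) kept 15164 genes. TMM scaling (0.989 to 1.01) was followed by tests with edgeR 4.0.16 (glmQLFit, robust, group as the only term) in R 4.3.3, adjusted by Benjamini-Hochberg. SE is the log2 fold change divided by the root of F. CPM, counts per 1e+06, used the scaled totals of the kept genes. Alternatives used DESeq2 1.42.0, limma 3.58.1 (voom), other scalings and filters, a block on column number and left-out libraries.

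All 36 members are reported. A gene of the other lists is not reported here and is left out of its list's counts. From these lists, up to 4 called genes with the largest changes are named, or the 2 with the lowest p. The members and lists were chosen with earlier results of these data known.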

Additional observations from a re-analysis of the deposited data

Results flagged for a closer look

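In 112 groups of 4 libraries checked (the tested members and the other genes named by rule, in each group), 5 held a library far from the other 3, where chance flags about 1 in 20 groups (5.6 expected). Xiap was at 91.8 CPM in C6 against 79.5 to 80.9 CPM in the other non-irradiated libraries. Birc3 was at 15.7 CPM in C6 against 12.1 to 12.6 CPM, and at 14.3 CPM in L6 against 13.4 to 13.5 CPM in the other irradiated libraries. L6 was also the highest irradiated library for Tnfrsf25, at 1.96 CPM against 1.25 to 1.36 CPM. Tnfaip8 was at 20.8 CPM in C5 against 17.6 to 17.9 CPM. Of the 5 values, 2 were in C6, 2 in L6 and 1 in C5. Without both libraries numbered 6 the calls among members were Bok and Xiap higher and Bax, Bmf and Casp12 lower.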

How the results depend on the processing

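No member or other named gene that was called changed direction in any alternative. Members called higher numbered 0 as reported, 1 with DESeq2, with a filter of 1 CPM in 4 libraries and with counts divided by 4 (Xiap each time), 2 without both libraries numbered 6, and 0 to 1 when 1 library was left out, with limma-voom giving 0. Members called lower numbered 2, 1 to 3 when 1 library was left out (1 without C7, C8 or L5, where Bmf was lost, and 3 without C6, with Bax added) and 3 without both libraries numbered 6. All genes called higher numbered 976 to 1501 and lower 696 to 1172 with 1 library left out, the most in both directions without C6. With the median transcript length the median level of the tested members was 35.1 CPM per kb, against 10.9 with the longest transcript. Over 951 comparisons of a named gene with an alternative, 915 kept their side of the threshold, 27 lost a call and 9 gained one. The replicate block on the column number gave 1006 genes higher and 751 lower, and the same 2 members lower. Same-numbered columns did not deviate together from their group means. The correlations of these deviations in log2 CPM were -0.0234, -0.0339, 0.00144 and -0.0459, against -0.0217 to 0.0333 for columns with different numbers. Whether the numbers stand for a pairing in the experiment cannot be told from these values. Counts were low for Bcl2, Bmf and Casp4, and Bik, Hrk and Casp1 could not be tested.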
